A study of Mus musculus with 6 samples.

Results

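The S100 alarmins described here are S100a4, S100a6, S100a8, S100a9, S100a10 and S100a11, 6 of the 31017 genes counted and chosen by name. A further 12 counted genes have symbols that begin with S100, and 11 of them (all but S100a2) were followed as a list. Their RNA was counted in single cells from mouse knee synovium, the tissue that lines and cushions the joint. Arthritis was induced by transfer of K/BxN serum, whose autoantibodies bring neutrophils and other leukocytes into the joint. The 6 groups were arthritic Notch3-/- knockout mice (arthritic KO), arthritic wild-type mice (arthritic WT), arthritic mice given a monoclonal antibody to the receptor Notch3 (anti-Notch3), arthritic mice given an isotype control antibody (isotype), healthy Notch3-/- knockout mice (healthy KO) and healthy wild-type mice (healthy WT). Each group was 1 droplet library of live sorted cells pooled from 10 mice, so no group has a replicate. The cells to which the knockout is restricted, the strain, the ages and the antibody dose are not given in the sources used here.

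S100 proteins are small EF-hand proteins that change shape on binding calcium and then dock onto partners such as annexins and myosins. Several are also released by stressed or activated cells and act as alarmins. S100a8 and S100a9 pair as calprotectin, the most abundant protein of the neutrophil cytosol, and released calprotectin is sensed by Tlr4 and by Ager. S100a4 is known for its role in cell motility and is often used, imperfectly, as a fibroblast marker. S100a6 binds calcyclin-binding protein and annexins, S100a10 forms a complex with annexin A2 at the plasma membrane, and S100a11 pairs with annexin A1. In rheumatoid synovium S100a8 and S100a9 are known as products of infiltrating myeloid cells.

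The libraries held 2109 to 5096 barcodes with 11636998 to 24535233 unique molecular identifiers (UMIs, each marking 1 captured RNA molecule) and a median of 3988 to 7561 UMIs per barcode. Levels are given as CPM, the UMIs of a gene scaled to a total of 1e+06 UMIs in the cells named. Of 18491 deposited barcodes 17902 were kept as cells. Library pairs shared between 5 and 29 barcode sequences, at most 0.974% of the smaller library. Classes rest on fixed marker genes that exclude the S100 members: 11420 cells were fibroblast-like, 3232 macrophage-like, 997 endothelial-like, 341 monocyte-like and 42 neutrophil-like, while 1234 matched no class. Notch3 itself was at 0.257 CPM in arthritic KO, 5.58 in arthritic WT, 2.2 in anti-Notch3, 3.31 in isotype, 0.298 in healthy KO and 4.97 CPM in healthy WT cells. The library tags in the barcodes of the healthy pair were numbered 151 (KO) and 203 (WT), far apart, whereas those of each arthritic pair were neighbours, so a difference in handling within the healthy pair cannot be told apart from genotype.

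All 6 genes lie on mouse chromosome 3 within 2960873 bases (GENCODE annotation of GRCm38). S100a4 spans chr3:90603771-90606045 and S100a6 spans chr3:90612882-90624181, both on the plus strand. The calprotectin genes follow, S100a8 at chr3:90668978-90670035 on the plus strand and S100a9 at chr3:90692632-90695721 on the minus strand, with 22596 bases between them. S100a11 at chr3:93520488-93526287 and S100a10 at chr3:93555080-93564643, both on the plus strand, form the distal end of the group. RefSeq promoter entries (build GRCm38.p6) matched 5 of the 6 genes. The 150 bases before the RefSeq start are printed for the calprotectin genes, whose RNA lay mostly in neutrophil-like cells, and for S100a4 and S100a11, which differed most between cell classes or libraries. Capitals mark the basal promoter letters TATAAA or the AP-1 letters TGANTCA. All motifs were searched on both strands.
S100a8, chr3:90668921-90669070, plus strand: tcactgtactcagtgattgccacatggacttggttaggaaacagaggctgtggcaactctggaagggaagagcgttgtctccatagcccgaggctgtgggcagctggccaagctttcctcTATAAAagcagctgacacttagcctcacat
S100a9, chr3:90695722-90695871, minus strand: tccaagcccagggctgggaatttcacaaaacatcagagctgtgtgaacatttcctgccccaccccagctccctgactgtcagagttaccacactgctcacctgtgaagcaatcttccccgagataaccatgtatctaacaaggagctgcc
S100a4, chr3:90603620-90603769, plus strand: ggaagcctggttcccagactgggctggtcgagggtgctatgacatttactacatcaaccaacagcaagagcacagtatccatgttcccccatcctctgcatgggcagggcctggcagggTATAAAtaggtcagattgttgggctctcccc
S100a11, chr3:93520346-93520495, plus strand: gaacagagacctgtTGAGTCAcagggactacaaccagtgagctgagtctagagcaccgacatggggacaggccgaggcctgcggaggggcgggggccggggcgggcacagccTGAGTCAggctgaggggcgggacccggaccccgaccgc
TATAAA began at position -31 in S100a4 and at -30 in S100a8, and 7.57% of 32851 promoters held it in a window of this length. In S100a9 a match began at position 1, directly after the printed window. TGANTCA occurred at -136 and -38 in S100a11, against 4.24% of all promoters with at least 1 match. The C/EBP letters TTNNGCAA, held by 5.46% of promoters, were found in none of the 5 windows. The letters GTGGGAA of RBPJ, the DNA-binding partner of Notch, are held by 3.13% of promoters and were likewise not among them. A match describes letters and not a bound site.

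S100a4 separated the cell classes more than S100a6, S100a10 or S100a11 did, being high in macrophage-like cells, variable in fibroblast-like cells and low in endothelial-like cells of every library. The lowest, median and highest levels over the 6 libraries were 1080.2, 1743 and 2080.2 CPM in macrophage-like cells, 48.0, 63.3 and 146 CPM in endothelial-like cells, and 587, 895 and 1754 CPM in fibroblast-like cells. The endothelial range lay below both others with no overlap. Macrophage-like minus endothelial-like S100a4 was 4.39 ± 0.61 log2(CPM + 1) (SD over 6 libraries), with macrophage-like cells higher in 6 of 6. Endothelial-like minus fibroblast-like S100a4 was -3.60 ± 0.82 log2(CPM + 1), lower in all 6 libraries. Macrophage-like cells were also above fibroblast-like cells in 5 of 6 libraries, by 0.80 ± 0.61 log2(CPM + 1) (exact sign-flip permutation p = 0.0625, two-sided). The exception was healthy WT, where fibroblast-like cells reached 1754 CPM and macrophage-like cells 1727 CPM. Beyond these classes, B-cell-like cells had 24.6 to 50.8 CPM of S100a4 and T/NK-like cells 1214 to 1527 CPM in the libraries with at least 30 such cells.

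S100a6 had the opposite order at the top: fibroblast-like cells led in every library. Its lowest, median and highest levels were 2243, 3759.8 and 4889.7 CPM in macrophage-like cells, 1459, 1734 and 2309.7 CPM in endothelial-like cells, and 4155, 5088 and 6922 CPM in fibroblast-like cells. Macrophage-like minus fibroblast-like S100a6 was -0.51 ± 0.35 log2(CPM + 1), lower in 6 of 6 libraries, although the ranges of the classes overlap across libraries. Endothelial-like minus fibroblast-like S100a6 was -1.53 ± 0.28 log2(CPM + 1), and there the ranges did not overlap. Between 99.5% and 100% of fibroblast-like cells held at least 1 S100a6 UMI, so it was detected in nearly every one.

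S100a10 and S100a11 differed less between classes. The lowest, median and highest S100a10 levels were 1178, 1757 and 2725 CPM in macrophage-like cells, 711, 1161 and 1682 CPM in endothelial-like cells, and 1108, 1775 and 2125 CPM in fibroblast-like cells. No class led S100a10 in all 6 libraries, and macrophage-like minus fibroblast-like S100a10 was 0.17 ± 0.45 log2(CPM + 1). For S100a11 the same 3 values were 464, 698 and 882 CPM in macrophage-like cells, 442, 873 and 1569 CPM in endothelial-like cells, and 914, 1079 and 1192 CPM in fibroblast-like cells. Macrophage-like minus fibroblast-like S100a11 was -0.68 ± 0.35 log2(CPM + 1), lower in 6 of 6 libraries. The endothelial S100a11 range was the widest, 3.55-fold from lowest to highest library, against 1.30-fold in fibroblast-like cells. Monocyte-like cells had 3055 CPM of S100a11 in arthritic WT (238 cells) and 1883 CPM in isotype (47 cells), above the macrophage-like cells of the same libraries at 882 and 603 CPM.

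Over the 6 genes and 6 pairs of classes or fibroblast subsets, 36 differences were tested with the exact sign-flip permutation test, paired by library. In 16 of them all 6 libraries pointed the same way, which gives the smallest two-sided p this design allows, 0.0312, and 0.0703 after Benjamini-Hochberg adjustment. None of the 36 passed an adjusted threshold of 0.05.

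**Figure D1:**
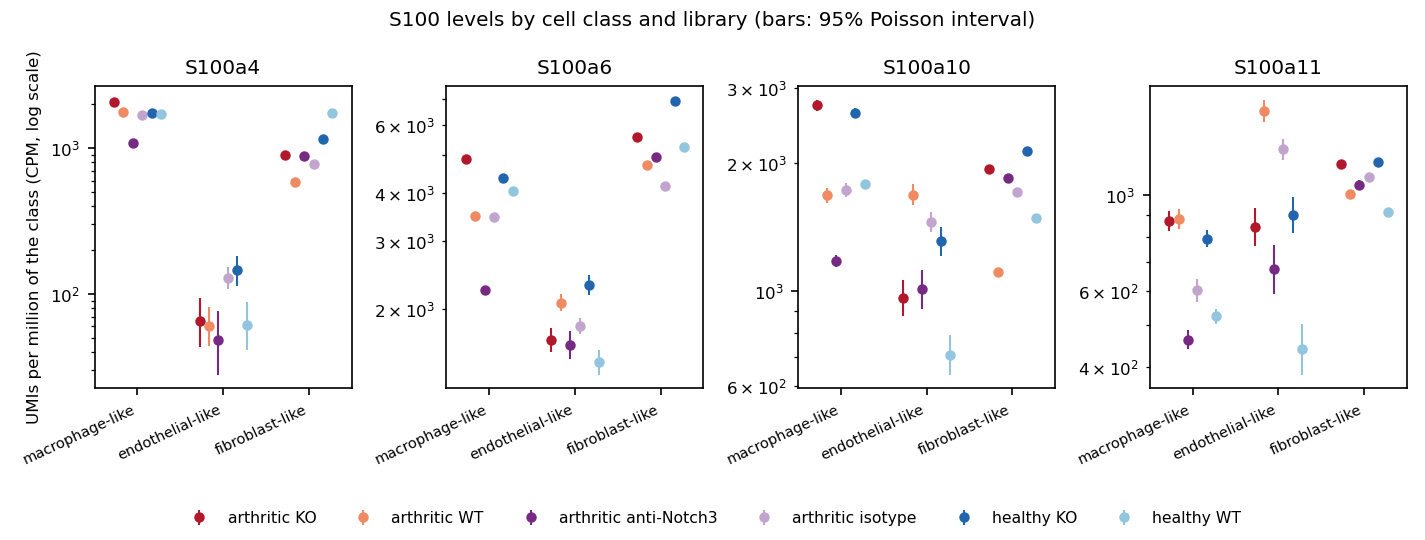
Levels of S100a4, S100a6, S100a10 and S100a11 in macrophage-like, endothelial-like and fibroblast-like cells, in CPM of the class on a log axis, with 1 point per library and 95% Poisson intervals. S100a4 in endothelial-like cells stays between 48.0 and 146 CPM, below every point of the other classes.

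Fibroblasts of the joint fall into a lining layer facing the joint space, which secretes lubricin (Prg4), and a sublining that surrounds vessels. S100a4 and S100a6 ran in opposite directions between them. S100a6 was highest in lining-like fibroblasts, with 11267 CPM in arthritic KO, 6334 in arthritic WT, 7491 in anti-Notch3, 7490.5 in isotype, 11473 in healthy KO and 9894 CPM in healthy WT. In Pi16 sublining-like fibroblasts, which carry markers of adventitial progenitors, S100a6 was 5915 CPM in arthritic KO, 4690.4 in arthritic WT, 4452 in anti-Notch3, 3755 in isotype, 5457 in healthy KO and 5368 CPM in healthy WT. The lowest lining-like library stood above the highest Pi16 sublining-like library. Pi16 sublining-like minus lining-like S100a6 was -0.84 ± 0.23 log2(CPM + 1), and lining-like minus other fibroblast-like cells was 1.08 ± 0.28 (SD over 6 libraries, same direction in 6 of 6 each).

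S100a4 was lowest in lining-like fibroblasts. There it had 491 CPM in arthritic KO, 339 in arthritic WT, 389 in anti-Notch3, 264 in isotype, 603 in healthy KO and 855 CPM in healthy WT. Pi16 sublining-like fibroblasts had 1036 CPM in arthritic KO, 555 in arthritic WT, 1113 in anti-Notch3, 858 in isotype, 1435 in healthy KO and 1937 CPM in healthy WT. The subsets overlap across libraries but not within one: Pi16 sublining-like minus lining-like S100a4 was 1.24 ± 0.35 log2(CPM + 1), with a range over libraries of 0.71 to 1.70. Pi16 sublining-like and other fibroblast-like cells differed by -0.004 ± 0.204 log2(CPM + 1) in S100a4. S100a10 and S100a11 were likewise higher in Pi16 sublining-like than in lining-like fibroblasts of all 6 libraries, by 0.75 ± 0.32 for S100a10 and 0.54 ± 0.15 log2(CPM + 1) for S100a11. Across subsets the healthy WT library held the highest S100a4 each time. In lining-like and in Pi16 sublining-like cells healthy KO came next, but the order of the arthritic libraries differed between these subsets.

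**Figure D2:**
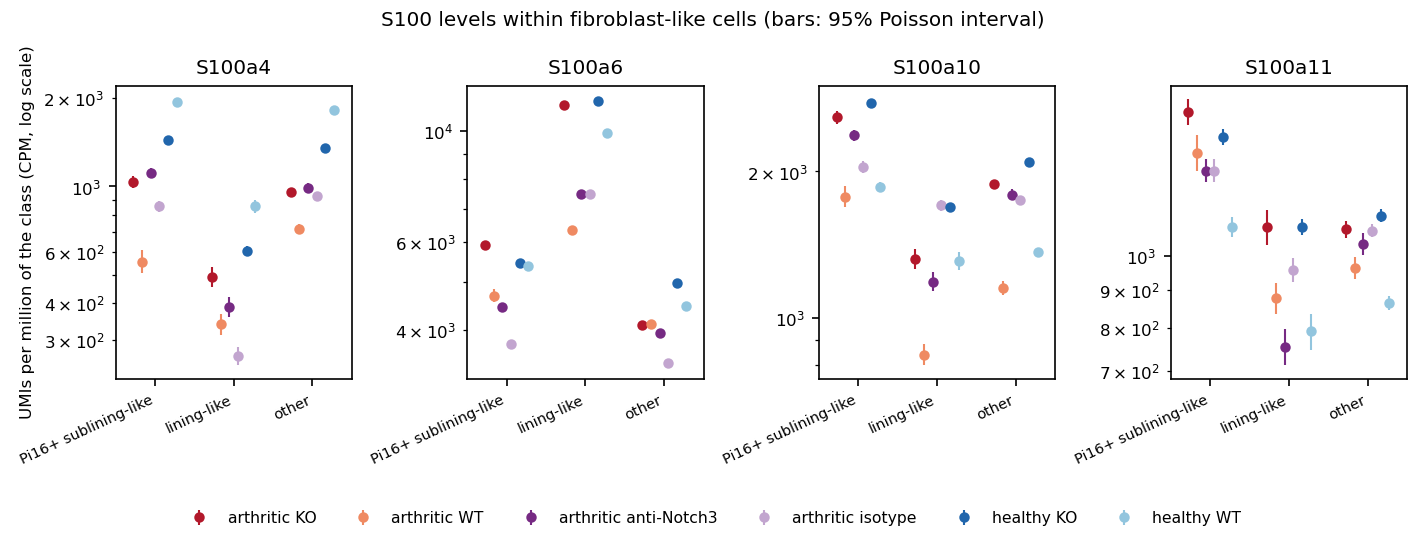
Levels of S100a4, S100a6, S100a10 and S100a11 in Pi16 sublining-like, lining-like and other fibroblast-like cells, in CPM of the subset on a log axis, with 1 point per library and 95% Poisson intervals. Lining-like cells hold the most S100a6 (6334 to 11473 CPM) and the least S100a4 (264 to 855 CPM).

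S100a8 and S100a9 were products of very few barcodes. Of 33190 S100a8 UMIs in all cells, 97.8% lay in 258 of 17902 barcodes that were neutrophil-like or carried at least 3 of 16 neutrophil marker genes, and so did 98.2% of 24684 S100a9 UMIs. Elsewhere 730 S100a8 UMIs were spread over 370 cells and 441 S100a9 UMIs over 263 cells. The 42 neutrophil-like cells alone held 66.3% of the S100a8 and 66.6% of the S100a9. By contrast they held 0.0206% of the S100a4 UMIs, below their 0.235% share of all cells, and 0.534% of the S100a11 UMIs, above that share. In these cells S100a8 made up 114622 CPM in arthritic KO (12 cells), 44870 in arthritic WT (12 cells), 63608 in isotype (6 cells) and 188548 CPM in healthy WT (12 cells). Their S100a4 was 11, 12, 1 and 0 UMIs in the same libraries. S100a11 was present in every neutrophil-like cell, at 1715 CPM in arthritic KO, 3045 in arthritic WT, 8166 in isotype and 3744 CPM in healthy WT.

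The whole-library level of the calprotectin genes ran with which libraries contained neutrophil-like cells. S100a8 over all cells was 1539 CPM in arthritic KO, 333 in arthritic WT, 0.793 in anti-Notch3, 38.4 in isotype, 9.41 in healthy KO and 449 CPM in healthy WT. S100a9 over all cells was 1121 CPM in arthritic KO, 278 in arthritic WT, 0.0881 in anti-Notch3, 39.8 in isotype, 7.92 in healthy KO and 319 CPM in healthy WT. No neutrophil-like cell was found in anti-Notch3 (0 of 2046 cells, which allows a share of up to 0.147%) or in healthy KO (0 of 4906 cells, up to 0.0611%). In the other libraries they were 0.456% of cells in arthritic KO, 0.503% in arthritic WT, 0.198% in isotype and 0.414% in healthy WT. Barcodes that were neutrophil-like or carried 3 or more neutrophil markers numbered 39 in arthritic KO, 164 in arthritic WT, 6 in anti-Notch3, 24 in isotype, 2 in healthy KO and 23 in healthy WT, so most were in arthritic WT. In healthy KO 1 barcode of mixed markers held 200 of the 221 S100a8 UMIs and 176 of the 186 S100a9 UMIs, which leaves 21 and 10 UMIs in the rest of that library. Fewer neutrophils captured and fewer in the joint cannot be told apart in sorted cells. B-cell-like cells numbered 76 in arthritic KO and 81 in healthy WT, against 1 to 10 in each other library. Erythroid-like cells numbered 9 and 21, against 0 or 1. Fibroblast-gated barcodes with 3 or more neutrophil markers held 1299 UMIs of the granule transcript Camp in arthritic KO and 174 in healthy WT. They held 14 in healthy KO, 3 in arthritic WT and 1 in isotype. The source of the neutrophil-like cells was not tested.

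**Figure D3:**
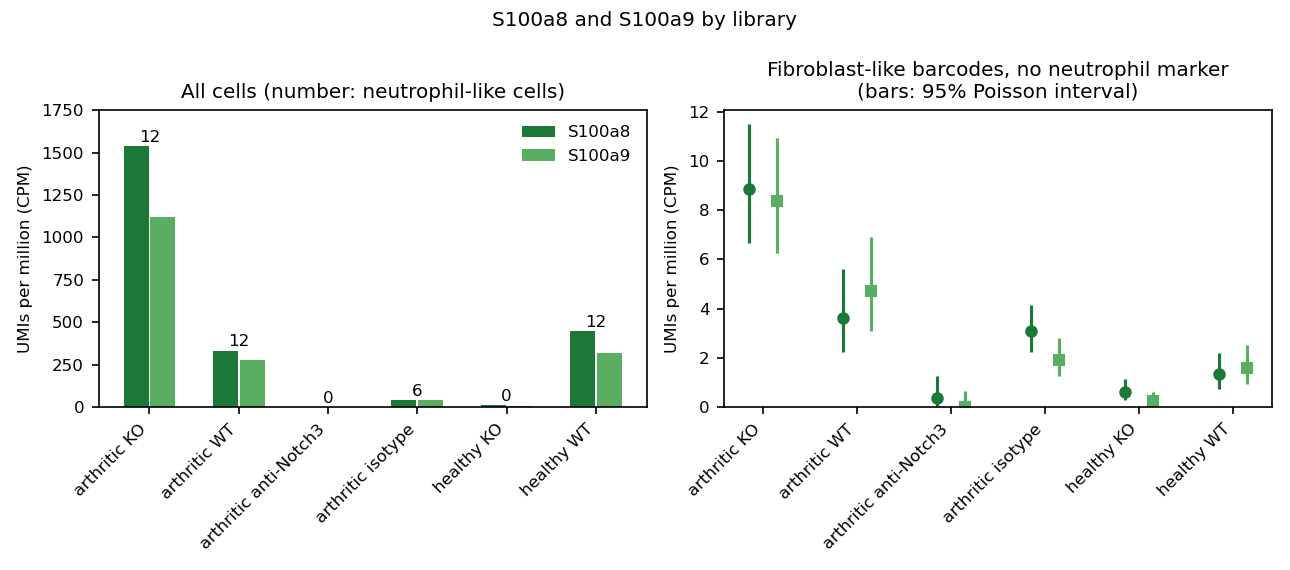
Left, S100a8 and S100a9 over all cells of each library in CPM, with the number of neutrophil-like cells above the bars. Right, the same genes in fibroblast-like barcodes without any neutrophil marker, with 95% Poisson intervals. The left axis reaches 1539 CPM and the right axis 8.85 CPM, both in arthritic KO.

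In fibroblast-like barcodes without neutrophil markers the calprotectin RNA was found as single molecules. Among 9342 fibroblast-like barcodes with none of the neutrophil markers, 145 had S100a8 and 144 of those had exactly 1 UMI. A further 64 barcodes with fibroblast markers and 3 or more neutrophil markers held 94.1% of all S100a8 UMIs in fibroblast-gated barcodes, up to 1399 in a single one, and were kept out of the fibroblast class. In the marker-free barcodes S100a8 was 8.85 CPM (95% Poisson interval 6.69 to 11.5) in arthritic KO, 3.63 (2.22 to 5.61) in arthritic WT, 0.347 (0.0421 to 1.26) in anti-Notch3, 3.07 (2.22 to 4.14) in isotype, 0.610 (0.293 to 1.12) in healthy KO and 1.32 (0.740 to 2.18) CPM in healthy WT. These intervals cover counting error only. The lowest values were in the libraries without neutrophil-like cells and the highest in arthritic KO, which had the most S100a8 overall. The order between them was not that of the whole libraries: healthy WT was above isotype and arthritic WT over all cells but below both in marker-free fibroblast-like barcodes.

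After thinning each cell to 1000 UMIs, the share of marker-free fibroblast-like barcodes with S100a8 was 0.882% in arthritic KO, 0.277% in arthritic WT, 0.0936% in anti-Notch3, 0.309% in isotype, 0.0736% in healthy KO and 0.118% in healthy WT. Fibroblasts are taken as cells that should lack the gene, so these shares are the background for the other classes. Macrophage-like cells of healthy WT had S100a8 in 6.40% of cells unthinned and 0.914% thinned (median depth 6951.5 UMIs), against 1.12% and 0.123% in all fibroblast-like cells of that library (median 8350.5 UMIs). Of the 42 macrophage-like cells with S100a8 there, 37 had exactly 1 UMI and none more than 2. In arthritic KO macrophage-like cells the thinned share was 0.815%, below the 0.907% of all fibroblast-like cells of that library.

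The proportion of S100a8 to S100a9 was compared between classes. S100a8 was 57.3% (95% Clopper-Pearson interval 56.8 to 57.8%) of the summed S100a8 and S100a9 UMIs in neutrophil-like cells and 53.1% (49.1 to 57.2%) in fibroblast-like cells. In macrophage-like cells it was 74.8% (67.5 to 81.3%) over all libraries and differed between them. Within healthy WT the macrophage-like share was 83.9% (71.7 to 92.4%, 47 S100a8 and 9 S100a9 UMIs), against 58.0% (57.3 to 58.8%) in the neutrophil-like cells of that library. Within isotype it was 81.6% (65.7 to 92.3%) in macrophage-like cells and 46.1% (43.4 to 48.9%) in neutrophil-like cells, but fibroblast-like cells there were also above neutrophil-like cells at 64.3% (55.4 to 72.6%). In arthritic KO the macrophage-like share was 48.1% (28.7 to 68.1%) and the neutrophil-like share 57.8%. In arthritic WT it was 75.0% (55.1 to 89.3%) in macrophage-like cells and 56.0% (54.6 to 57.4%) in neutrophil-like cells. The macrophage values thus rest on 27 to 56 UMIs in each of these libraries and did not all point one way. Only in arthritic KO was the macrophage-like share below that of the neutrophil-like cells. One monocyte-like cell of arthritic KO held 116 of the 133 S100a8 UMIs of its class.

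Set against these levels, no S100 member passed an adjusted p of 0.05 in any class in the edgeR quasi-likelihood fit of Notch3 targeting, which treats knockout and antibody as repeats of 1 effect over 3 pairs (2 residual degrees of freedom). In fibroblast-like cells that fit called 0% of 12894 genes (7.85% without adjustment), in macrophage-like cells 0.0536% of 9329 and in endothelial-like cells 0.0613% of 6522. Without adjustment, at 0.05, the members past it were 3 of 6 in fibroblast-like cells (S100a8, S100a9 and S100a10), 1 of 5 in macrophage-like cells (S100a8, beside 5.48% of genes) and 0 of 4 in endothelial-like cells (beside 7.87%). Over the 2 arthritic pairs alone 0 members passed in fibroblast-like cells, beside 2.09% of genes (0.853% lower), and 1 did unadjusted, beside 18.6%. In macrophage-like cells 0 passed, beside 0% of genes, and 1 did unadjusted, beside 8.57%. In fibroblast-like cells S100a8 and S100a9 gave -1.57 (standard error 0.55) and -1.98 log2 (standard error 0.71) with edgeR adjusted p-values of 0.577 and 0.587, on the low counts described above. S100a10 had the next lowest p. It had 1932 CPM in arthritic KO and 1108 in arthritic WT, 1840.3 in anti-Notch3 and 1709.8 in isotype, and 2125 in healthy KO and 1481 CPM in healthy WT. The targeted library was the higher of each pair. The share of all fibroblast genes with that pattern was not counted. Fibroblasts with inflammatory markers were 0 of 1700 fibroblast-like cells in arthritic KO and 11.95% in arthritic WT, and 0 of 1078 in anti-Notch3 and 10.0% in isotype. These cells had 871 CPM of S100a10 in arthritic WT and 1209 CPM in isotype. Among other fibroblast-like cells, without these, S100a10 was 1882 CPM in arthritic KO and 1151 in arthritic WT, 1792 in anti-Notch3 and 1744 in isotype, and 2094 in healthy KO and 1368 CPM in healthy WT. In lining-like cells the antibody pair went the other way, with 1187 CPM in anti-Notch3 and 1703 CPM in isotype. The part of subset composition in the class value was not tested. The edgeR log2 fold change of S100a10 in the whole class was 0.55 with a standard error of 0.20 (adjusted p = 0.60). S100a6 gave 0.37 (standard error 0.17, edgeR adjusted p = 0.68), with 5558 CPM in arthritic KO and 4714 in arthritic WT, 4936 in anti-Notch3 and 4155 in isotype, and 6922 in healthy KO and 5239.8 CPM in healthy WT. S100a11 gave 0.26 (standard error 0.18, edgeR adjusted p = 0.77) and S100a4 0.14 (standard error 0.27, edgeR adjusted p = 0.92).

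S100a4 in fibroblast-like cells moved in opposite directions in the pairs. It was 899 CPM in arthritic KO and 587 in arthritic WT, a log2 ratio of 0.62. In the healthy pair it was 1155 CPM in KO and 1754 in WT, a log2 ratio of -0.60. Antibody and isotype libraries had 891 and 778 CPM, a log2 ratio of 0.20. A ratio of 2 single libraries has no test. Among fibroblast genes with at least 20 UMIs in a pair, 12.8% were higher by at least 1.5-fold in arthritic KO over WT and 16.6% lower by that fold in healthy KO over WT. The edgeR test of the difference, healthy pair minus the arthritic pairs, gave -1.01 log2 (standard error 0.36, adjusted p = 0.28).

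Arthritis itself was set against health within each genotype. The library tags were numbered 62 to 70 in the arthritic libraries and 151 and 203 in the healthy ones, so arthritis and a difference in handling cannot be told apart. In fibroblast-like cells S100a4 was lower in the arthritic library of both genotypes, 899 CPM in arthritic KO and 1155 in healthy KO (log2 ratio -0.36), and 587 CPM in arthritic WT and 1754 in healthy WT (log2 ratio -1.58). Lining-like cells, the subset lowest in S100a4, were 10.7% of fibroblast-like cells in arthritic KO and 22.5% in healthy KO, and 23.1% in arthritic WT and 7.59% in healthy WT. Within lining-like and within Pi16 sublining-like cells S100a4 was also lower in the arthritic library of each genotype, by the values given for the subsets. The edgeR log2 fold change for arthritis was -0.95 with a standard error of 0.33 (adjusted p = 0.93). S100a6, S100a10 and S100a11 gave fold changes of -0.20, -0.24 and 0.09 log2 with edgeR adjusted p-values of 0.95 to 0.97. S100a8 stood at 9.37 CPM in arthritic KO and 0.589 in healthy KO, and at 18.2 CPM in arthritic WT and 1.27 in healthy WT. S100a9 was 9.87 CPM in arthritic KO and 0.214 in healthy KO, and 18.2 CPM in arthritic WT and 1.53 in healthy WT. Both were higher in arthritis for either genotype, with log2 fold changes of 3.98 (standard error 0.68) and 4.48 (standard error 0.85) at the same edgeR adjusted p of 0.93. That contrast called 0% of fibroblast genes by edgeR (3.95% when unadjusted, 3 of 6 members), while DESeq2 called these members among 3 genes, S100a8 with an adjusted p of 0.000271 and S100a9 with 0.000236. In the marker-free barcodes S100a8 was 8.85 CPM in arthritic KO and 0.610 in healthy KO, and 3.63 CPM in arthritic WT and 1.32 in healthy WT, so the arthritic libraries stayed higher but the wild-type difference was smaller.

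Over all 5 library pairs, fibroblast-like cells gave these counts of members past 1.5-fold. Healthy KO over WT had 0 of 6 members higher and 3 lower (S100a4, S100a8 and S100a9), beside 11.5% and 16.6% of genes. Arthritic KO over WT had 2 higher (S100a4 and S100a10) and 2 lower (S100a8 and S100a9), beside 12.8% and 17% of genes. Anti-Notch3 over isotype had 0 higher and 2 lower, the calprotectin genes with 2 S100a8 UMIs against 83 and 0 S100a9 UMIs against 46, beside 10.4% and 13.5% of genes. Arthritic over healthy WT had 2 higher (S100a8 and S100a9) and 1 lower (S100a4), beside 15.4% and 19.1% of genes. Arthritic over healthy KO had those 2 higher and 0 lower, beside 8.56% and 10.6% of genes. S100a6 and S100a11 stayed within 1.5-fold in each of the 5 pairs.

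In macrophage-like cells the anti-Notch3 library was the lowest of the 6 for S100a4, S100a6, S100a10 and S100a11. S100a4 was 1080.2 CPM in anti-Notch3 and 1691 in isotype, a log2 ratio of -0.65, and S100a6 was 2243 CPM in anti-Notch3 and 3457 in isotype, a log2 ratio of -0.62. S100a10 and S100a11 had log2 ratios of -0.55 and -0.38 in that pair. Among macrophage genes 15% were lower by at least 1.5-fold in that pair, with a median log2 ratio of -0.13. The knockout pair in arthritis did not share this: S100a10 was 2725 CPM in arthritic KO and 1677 in arthritic WT (log2 ratio 0.70), and S100a6 was 4889.7 and 3474 CPM (log2 ratio 0.49). Here 18.2% of genes were higher by at least 1.5-fold. The edgeR fold changes over all pairs were -0.04 for S100a4, 0.08 for S100a6, 0.32 for S100a10 and 0.15 for S100a11, with adjusted p-values of 0.933 to 0.9965. Summed fibroblast markers in macrophage-like cells (10 of 10 seen) were 326 CPM in anti-Notch3 and 914 CPM in isotype, and the median depth was 4471 and 3595 UMIs in those libraries. Their part in the difference was not tested.

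S100a8 in macrophage-like cells was lower with Notch3 targeted in all pairs: 13 and 21 UMIs in arthritic KO and WT, 6 and 31 UMIs in anti-Notch3 and isotype, and 4 and 47 UMIs in healthy KO and WT. The edgeR log2 fold change was -1.98 with a standard error of 0.49 (adjusted p = 0.67). The anti-Notch3 and healthy KO libraries are those with 0 neutrophil-like cells, beside 6 in isotype and 12 in healthy WT. The part of neutrophil RNA in this difference was not tested. Counted over the pairs, macrophage-like cells of healthy KO over WT had 1 of 5 members higher (S100a11) and 1 lower (S100a8), beside 5.87% and 22.8% of genes. Arthritic KO over WT had 2 of 6 higher (S100a10, and S100a9 with 14 UMIs against 7) and 1 lower (S100a8), beside 18.2% and 15.7%. Anti-Notch3 over isotype had 0 of 5 higher and 3 lower (S100a4, S100a6 and S100a8), beside 8.68% and 15%. For arthritis, WT had 1 of 5 higher (S100a11, 882 CPM in arthritic and 525 in healthy WT) and 0 lower, beside 9.84% and 29.7% of genes, and KO had 0 of 4 in either direction, beside 11.3% and 9.96%. Monocyte markers in macrophage-like cells summed to 1042 CPM in arthritic WT (6 of 6 seen) and 254 CPM in healthy WT (5 of 6, Ly6c2 at 0), with median depths of 2340 UMIs in arthritic WT and 6951.5 in healthy WT, and monocyte-like cells of arthritic WT held 3055 CPM of S100a11. The part of these values in the S100a11 ratio was not tested. The edgeR fit of arthritis called 0 of 5 members in macrophage-like cells, beside 0.0107% of genes, and 1 unadjusted (S100a8, 1.38 log2), beside 5.72%.

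**Figure D4:**
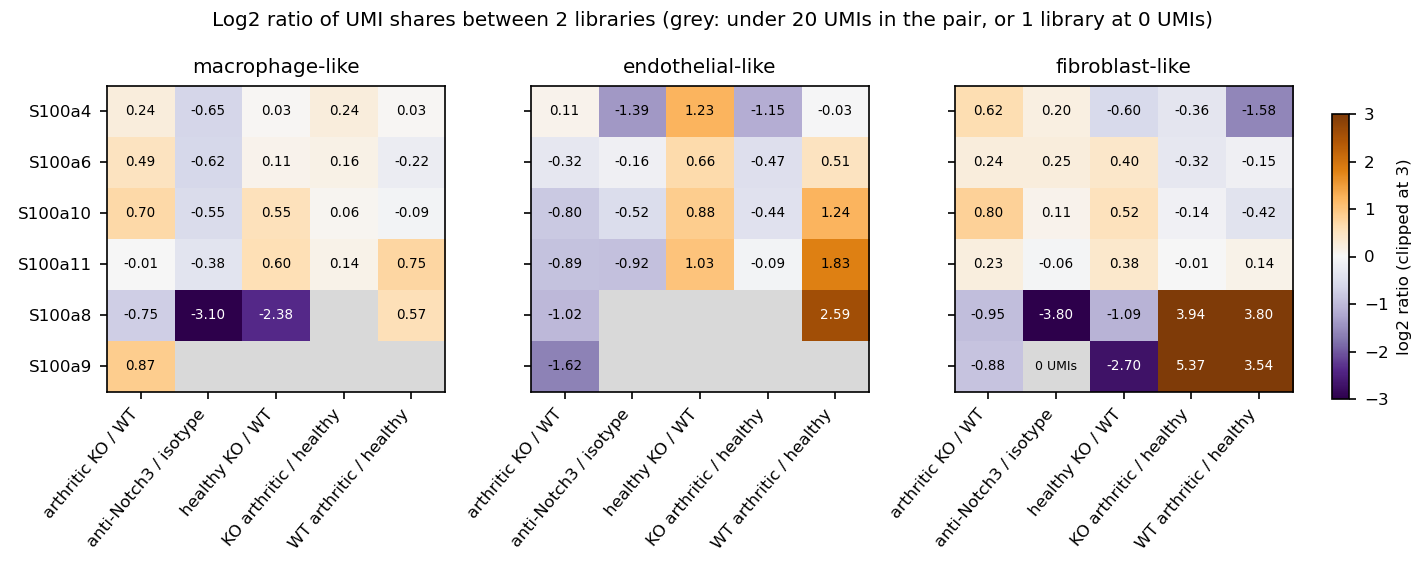
Log2 ratio of each gene's share of UMIs between 2 libraries of a pair, for macrophage-like, endothelial-like and fibroblast-like cells, with colours clipped at 3. S100a10 and S100a11 in endothelial-like cells are lower in both arthritic targeted libraries (-0.52 to -0.92) and higher in healthy KO over WT (0.88 and 1.03).

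In endothelial-like cells S100a10 and S100a11 differed by disease state in how they went with Notch3 targeting. Endothelium is where Notch3 ligands such as Jag1 are presented to neighbouring mural cells and fibroblasts, and S100a10 in endothelium is known for anchoring plasminogen activation together with annexin A2. S100a11 was 845 CPM in arthritic KO and 1569 in arthritic WT, 675 in anti-Notch3 and 1278 in isotype, and 901 in healthy KO and 442 CPM in healthy WT. S100a10 was 966 CPM in arthritic KO and 1682 in arthritic WT, 1011 in anti-Notch3 and 1452 in isotype, and 1311 in healthy KO and 711 CPM in healthy WT. In arthritis the targeted libraries lay below both of their counterparts, and in health the KO library lay above WT. The Poisson intervals within each pair did not overlap for either gene.

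The ratios were -0.89 and -0.92 log2 for S100a11 in the knockout and antibody pairs of arthritis and 1.03 log2 in the healthy pair. For S100a10 they were -0.80, -0.52 and 0.88 log2. S100a4, at 29 and 44 UMIs in arthritic KO and WT, 17 and 124 in anti-Notch3 and isotype and 73 and 30 in healthy KO and WT, had ratios of 0.11, -1.39 and 1.23 log2. S100a6 had ratios of -0.32, -0.16 and 0.66 log2. In the healthy pair all 4 measured members were thus higher by at least 1.5-fold, beside 10.1% of 5996 endothelial genes, and 0 were lower, beside 22.9%. Arthritic KO over WT had 0 of 6 higher and 4 lower (S100a8 and S100a9 at 9 and 3 UMIs in KO among them), beside 18.8% and 23.6% of genes. Anti-Notch3 over isotype had 0 of 4 higher and 2 lower (S100a4 and S100a11), beside 15% and 20.6%. For arthritis, WT had 3 of 5 higher (S100a8, S100a10 and S100a11) and 0 lower, beside 18.2% and 26.7%, and KO had 0 of 4 higher and 1 lower (S100a4), beside 12.2% and 14.4%. The edgeR fit of arthritis called 0 of 4 members, beside 0% of genes, and 0 unadjusted, beside 3.96%. The same genes are counted in single libraries of 115 (anti-Notch3) to 206 (isotype) endothelial-like cells, and members are not independent replicates.

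Fitted over the 2 arthritic pairs alone, with 1 residual degree of freedom, S100a11 fell with Notch3 targeting by 0.82 log2 (standard error 0.21, edgeR adjusted p = 0.00124) and S100a10 fell by 0.57 log2 (standard error 0.21, edgeR adjusted p = 0.0394). These were 2 of 5 members tested, where 16.6% of 6491 endothelial genes were called and 6.62% were called lower (unadjusted, 3 of 5 members and 26.7% of genes). The difference between disease states was tested in the same way over all 6 libraries with an added term, again with 1 residual degree of freedom. In both fits the spread was estimated almost wholly over all genes together, not from each gene's own pairs. The single healthy pair gives no spread of its own. The healthy minus the arthritic effect was 2.05 log2 for S100a11 (standard error 0.38, edgeR adjusted p = 3.54e-06), 1.66 for S100a10 (standard error 0.37, edgeR adjusted p = 0.00028) and 2.03 for S100a4 (standard error 0.47, edgeR adjusted p = 0.000639). S100a6 gave 1.02 log2 and missed the threshold (standard error 0.37, edgeR adjusted p = 0.0555). The term was past the threshold for 9.12% of 7390 endothelial genes, for 0% of fibroblast genes and for 0.0803% of macrophage genes. A fit in which all pairs share 1 effect gave -0.18 log2 for S100a11 (edgeR adjusted p = 0.94).

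Other measures moved with these libraries. Median depth of endothelial-like cells was 1952.5 UMIs in arthritic KO and 5311 in arthritic WT, 2805 in anti-Notch3 and 3852 in isotype, and 1821 in healthy KO and 2738 in healthy WT. The 10 fibroblast markers summed to 343 CPM in arthritic KO and 311 in arthritic WT, 384 in anti-Notch3 and 785 in isotype, and 1065 in healthy KO and 292 CPM in healthy WT, with Pdpn at 0 in arthritic KO, Pdgfra at 0 in arthritic WT and both at 0 in anti-Notch3. The 7 mural markers, of which 4 to 6 were seen in a library, summed to 141 CPM in arthritic KO and 341 in arthritic WT, 136 in anti-Notch3 and 206 in isotype, and 416 in healthy KO and 94.5 CPM in healthy WT, with Myh11 at 0 in all but healthy WT. The median mitochondrial share was 1.75% in arthritic KO and 3.87% in arthritic WT, 3.22% in anti-Notch3 and 4.37% in isotype, and 3.08% in healthy KO and 1.45% in healthy WT. Mural markers and the mitochondrial share were lower in both arthritic targeted libraries than in their counterparts and higher in healthy KO than in healthy WT, the same directions as S100a10 and S100a11. Depth was lower in the targeted library of every pair, and fibroblast markers were higher in healthy KO than in healthy WT. Cd36, a leading gene of 1 endothelial cluster, went opposite to S100a10 and S100a11 in every pair. It was 2055 CPM in arthritic KO and 224 in arthritic WT, and 2042 in anti-Notch3 and 389 in isotype. In the healthy pair it was 1379 CPM in KO and 3030.2 in WT. The part of these values in the S100 differences was not tested.

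**Figure D5:**
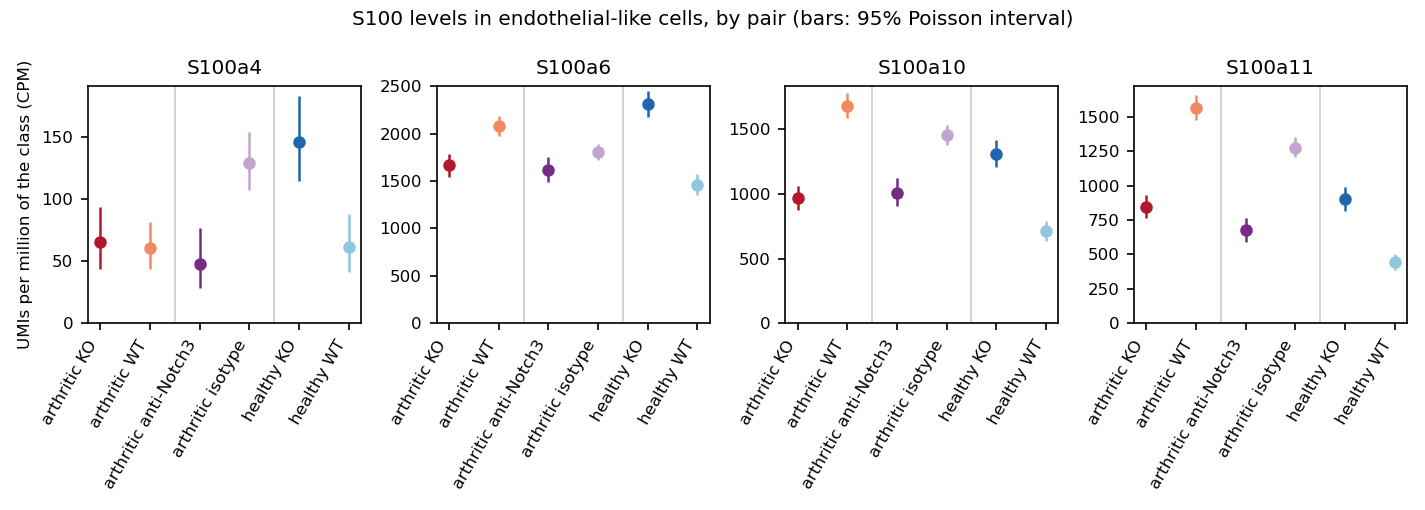
S100a4, S100a6, S100a10 and S100a11 in endothelial-like cells, in CPM of the class with 95% Poisson intervals, by pair with the Notch3-targeted library on the left of each. S100a11 is 845 against 1569 CPM in the arthritic genotype pair and 901 against 442 CPM in the healthy pair.

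The intracellular partners of S100 proteins were followed as a list of 10 genes (annexins, Ahnak, Cacybp, Sugt1, Myh9 and Bsg). In endothelial-like cells of the arthritic pairs 1 rose and 3 fell by edgeR, beside 16.6% of all endothelial genes called and 6.62% called lower, and the list's median log2 fold change was -0.32. Over the fit of all 6 libraries 0 of 10 passed in any class, with medians of -0.20 in endothelial-like, 0.21 in fibroblast-like and 0.12 in macrophage-like cells, against medians of all genes tested between -0.012 and 0.001. Anxa2, the binding partner of S100a10, fell with 437 CPM in arthritic KO and 938 in arthritic WT and 486 in anti-Notch3 and 990.2 in isotype (-0.97 log2, edgeR adjusted p = 6.91e-05). Anxa1, the partner of S100a11, fell by 1.52 log2 (edgeR adjusted p = 7.84e-10), with 148 CPM in arthritic KO and 509 in arthritic WT and 172 in anti-Notch3 and 464 in isotype. Cacybp, which binds S100a6, fell by 1.73 log2 (edgeR adjusted p = 1.61e-09), and Anxa11 rose by 0.80 log2 (edgeR adjusted p = 0.0103). In the healthy pair Anxa2 was 513 CPM in KO and 378 in WT, and Anxa1 was 279.7 CPM in KO and 125 in WT.

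Receptors and adaptors of calprotectin signalling were measured as a second list of 10 genes. Tlr4 was sparse, with medians over libraries of 16.8 CPM in macrophage-like, 6.06 in endothelial-like and 12.8 in fibroblast-like cells, while its co-receptor Cd14 had a median of 443 CPM in macrophage-like, 33.0 in endothelial-like and 7.36 CPM in fibroblast-like cells. Ager was at the limit of detection, with 3, 4 and 31 UMIs in all in those classes. In the fit of all 6 libraries 0 of 8 tested in fibroblast-like, 0 of 9 in macrophage-like and 0 of 6 in endothelial-like cells passed edgeR's adjusted threshold for Notch3 targeting. In the arthritic pairs alone 2 of 6 were called in endothelial-like cells, beside 16.6% of genes. The scavenger receptor Cd36 rose by 2.87 log2 (edgeR adjusted p = 1.71e-34) and Cd14 fell by 1.38 log2 (edgeR adjusted p = 0.00116). In the healthy pair Cd36 went the other way, with 1379 CPM in KO and 3030.2 in WT. Cd36 was also among the 10 leading genes of 1 of the endothelial clusters, with Fabp4 and Gpihbp1, and the share of that cluster in each library was not tested.

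Across the 18 library sums of the 3 large classes, S100a4 went with S100a6 (Pearson r = 0.835 of log2(CPM + 1)) and S100a6 with S100a10 (r = 0.731), but S100a4 did not go with S100a11 (r = -0.077). The points share libraries and classes, so these values describe the class pattern and no test was made. Of 9187 genes with at least 500 UMIs, those nearest to S100a4 were Arhgef10l (r = 0.969), Rnf180 (r = 0.969) and Cspg4 (r = 0.962). Those nearest to S100a6 were Ank2 (r = 0.968), Dbi (r = 0.962) and Dnm1 (r = 0.954). S100a10 was nearest to Tubb6 (r = 0.858), Anxa2 (r = 0.852) and Tppp3 (r = 0.844), and S100a11 to Nf1 (r = 0.859), Elob (r = 0.859) and Chic2 (r = 0.853). S100a8 and S100a9 had 489 and 346 UMIs in these sums and were not compared.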

How the data were processed

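Single-cell 3' libraries of 6 groups were deposited as UMI counts per gene and barcode, whole numbers not normalized. Per the submitters' processing notes the authors used Cell Ranger 3.0.2 and mm10. Members and gene lists were chosen with earlier results of these data known. Barcodes with over 10% mitochondrial UMIs (414) or called doublets by Scrublet (175) were removed. A barcode joined its highest-scoring class when at least 3 class markers were seen and the score was at least 0.3. The score also had to lead every class of another lineage by 0.1. No lead was needed among macrophage, monocyte and dendritic classes, or among fibroblast, bone and cartilage and tendon classes. Neutrophil-like barcodes needed 5 of 16 markers or 20 marker UMIs, and barcodes of another class with 3 or more neutrophil markers (5 for myeloid classes) were set aside as mixed (67). The neutrophil rule was set after the values were seen. Counts were summed per library and class and tested with edgeR 4.0.16 (TMM, quasi-likelihood, a term for each pair and 1 for Notch3 targeting, Benjamini-Hochberg over all genes), with DESeq2 1.42.0 as an alternative. The edgeR fit of Notch3 targeting over all 6 libraries was checked on simulated counts with known changes and no differences between pairs. The fits with 1 residual degree of freedom and DESeq2 were not checked in this way. The sign-flip p-values rest on class differences within each of the 6 libraries, which differ in group. With mice pooled and no replicate library, the edgeR and DESeq2 p-values measure only the spread between pairs, which may be technical. In edgeR that spread is estimated partly or wholly over all genes together, so a p-value need not reflect a gene's own spread between pairs. Ratios within a pair used a pseudocount of 0.5 UMIs, at least 20 UMIs and 1.5-fold. Named genes were the 6 members, the lists fixed with them and each member's 3 nearest genes.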

Additional observations from a re-analysis of the deposited data

Results flagged for a closer look

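The effect of Notch3 targeting differed between the healthy pair and the arthritic pairs in endothelial-like cells for 3 members, by a test of the difference itself. The difference, healthy minus arthritic, was 1.662 log2 for S100a10, 2.053 log2 for S100a11 and 2.028 log2 for S100a4 (edgeR adjusted p = 0.00028, 3.54e-06 and 0.000639). It rests on 1 healthy pair whose library tags lie far apart, and 9.12% of endothelial genes met the same threshold, so no feature particular to S100 genes is shown. For S100a4 the arthritic pairs did not share a direction, by the ratios given above, and counts were low. It had 29 UMIs in arthritic KO and 44 in arthritic WT, and 17 in anti-Notch3 and 124 in isotype. The test was added after the values were seen.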

How the results depend on the processing

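The 16 class differences that pointed one way in 6 libraries kept that direction with clusters in place of gates, a stricter gate, another pseudocount and each library left out. With 1 library left out the smallest possible p is 0.0625, so the call could not be tested there. For Notch3 targeting 0 members were called, against 1 without a filter on low counts (S100a8, macrophage-like, edgeR adjusted p = 0.000507), 1 without the arthritic genotype pair (S100a8, macrophage-like, -2.72 log2, edgeR adjusted p = 0.0275) and 2 without the healthy pair. For arthritis 0 were called, against 2 by DESeq2 and 1 without the filter (S100a8, endothelial-like). Over all genes, DESeq2 called 160, 13 and 19 for Notch3 targeting in fibroblast-like, macrophage-like and endothelial-like cells, the unfiltered fit 36, 148 and 214, and edgeR 0, 5 and 4. For arthritis they called 3, 16 and 1 by DESeq2, 3, 214 and 54 unfiltered, and 0, 1 and 0 by edgeR. Library pairs were a block in the edgeR fits, and without the pair block 0 members were called for either comparison. Signs turned for values not called in the fit of all 6 libraries. For Notch3 targeting in endothelial-like cells, leaving out the antibody pair gave S100a10 0.138 and S100a11 0.161 log2, and leaving out the arthritic KO and WT libraries gave 0.284 and 0.155. Without the healthy pair S100a4 was -0.579 and S100a6 -0.149. S100a4 was -0.135 in fibroblast-like cells without arthritic KO and WT, and 0.194 in macrophage-like cells without anti-Notch3 and isotype. In macrophage-like cells S100a11 was -0.151 without the healthy pair, and S100a6 was -0.00573 with total-UMI scaling, -0.0880 without arthritic KO and WT and -0.0204 without the healthy pair. For arthritis, without the pair block and with total-UMI scaling, S100a6 was -0.0225 and -0.00741 in endothelial-like cells and -0.157 and -0.00942 in macrophage-like cells, and S100a10 was -0.154 and -0.00721 in macrophage-like cells. With clusters, which keep barcodes with neutrophil markers, the arthritic KO over WT ratio was 0.258 for S100a8 and 0.270 for S100a9 in fibroblasts and 1.45 for S100a8 in macrophages. The cause of these changes was not tested. Depth limits S100a8 and S100a9 most, at 0 to 131 UMIs a library in fibroblast-like cells.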

Other observations

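Among the other S100 genes in fibroblast-like cells, S100b, S100a3, S100a13, S100a14 and S100a7a were higher in the Notch3-targeted library of all pairs, S100a14 and S100a7a at 63 and 80 UMIs in all. The share of all fibroblast genes with that pattern was not counted. S100b and S100a3 had the largest log2 fold changes of the 10 tested and are named after their values were seen. S100b, a calcium sensor best known from glia, was 88.9 CPM in arthritic KO and 41.2 in arthritic WT, 73.3 in anti-Notch3 and 28.3 in isotype, and 131 in healthy KO and 56.0 CPM in healthy WT. S100a3, best known from hair follicles, was 12.99 CPM in arthritic KO and 5.82 in arthritic WT, 17.7 in anti-Notch3 and 6.90 in isotype, and 19.8 in healthy KO and 6.88 CPM in healthy WT. In the fit of all 6 libraries neither passed the threshold (1.31 log2 with a standard error of 0.15 for S100b and 1.43 with a standard error of 0.18 for S100a3, edgeR adjusted p = 0.235 and 0.276), and 0% of fibroblast genes did. In the 2 arthritic pairs alone both rose, by 1.32 and 1.34 log2 (edgeR adjusted p = 0.0365 and 0.0498), where 2.09% of 11839 genes were called. S100a13 was 558 CPM in arthritic KO and 489 in arthritic WT, 569 in anti-Notch3 and 433 in isotype, and 630 in healthy KO and 548 CPM in healthy WT. Of the 11 genes of this list, which leaves out S100a2, 10 were tested in the first fit and 7 in the second.

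Of 7 other alarmins 6 were tested in fibroblast-like cells. In the arthritic pairs alone 1, Saa3, fell (-6.86 log2, edgeR adjusted p = 0.0219), beside 0.853% of genes called lower. Saa3 is itself a marker of the fibroblasts with inflammatory markers. These numbered 0 in arthritic KO and 128 in arthritic WT, and 0 in anti-Notch3 and 213 in isotype. Of 10 neutrophil granule transcripts 5 were tested in fibroblast-like cells over all 6 libraries and 0 passed. Their median was -0.66 log2 for Notch3 targeting and 2.64 for arthritis, against -0.012 and -0.01 for all genes tested. Camp, Ngp, Mpo and Mmp9 had only 116, 45, 60 and 39 UMIs in all. They are also among the markers by which mixed barcodes were set aside. Lcn2, with 2767 UMIs, gave -1.02 log2 for Notch3 targeting and -0.22 for arthritis.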
